A study of Mus musculus with 24 samples.

Results

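The genes described are 10 that write, keep or read DNA methylation and histone H3 lysine 9 (H3K9) methylation: Dnmt1, Dnmt3a, Dnmt3b, Uhrf1, Suv39h2, Setdb1, Trim28, Cbx1, Cbx3 and Cbx5. They were chosen by name, with earlier results of these data known. All their probe sets with a single gene symbol were taken, 31 of 34945 probe sets, so that the 10 genes were set among 18193. Total RNA came from 12 primary B-cell lymphomas of Eµ-Myc mice, in which a transgene drives Myc in the B-cell lineage. Each lymphoma was profiled after 5 days with 0.05 µg/ml Adriamycin (ADR, the DNA-damaging drug doxorubicin; 12 arrays, marked in the labels as treatment-induced senescence) and untreated (12 arrays). Both groups carried a retroviral Bcl2 gene, which blocks apoptosis, had been selected with puromycin and were kept on a feeder layer of NIH 3T3 fibroblasts stopped by gamma irradiation. Each lymphoma number stands for a separate lymphoma, and the ages and strains of the mice were not used here.

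DNA methylation in mammals is copied at replication. Uhrf1 binds hemimethylated DNA and methylated H3K9 and brings Dnmt1, the maintenance methyltransferase, to it, whereas Dnmt3a and Dnmt3b set new methyl groups. Suv39h2 and Setdb1 methylate H3K9, Trim28 (KAP1) recruits Setdb1 to zinc-finger target sites, and the HP1 proteins Cbx5 (HP1α), Cbx1 (HP1β) and Cbx3 (HP1γ) bind the methylated lysine. H3K9 methylation is known as a mark of senescent heterochromatin, and in Eµ-Myc lymphomas the H3K9 methyltransferase Suv39h1 is known for its part in drug-induced senescence. No probe set was annotated to Suv39h1 alone, and that gene is not analysed here.

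With ADR, 7 of the 10 genes fell, 0 rose and 3 were not called, at an adjusted p under 0.05 in limma with the lymphoma as a block. In the same fit 12.8% of all genes tested were called lower and 13.7% higher, 26.5% in either direction. Of those calls 48.2% were lower, or 70.4% once each array was centred on its median over the 18193 genes. Those medians averaged 5.52 with ADR and 5.41 untreated, so the centring shifts every change by -0.11. Over all probe sets the array medians were 4.38 to 4.47. The median log2 change of the 10 genes was -0.84, against -0.01 over all genes. Uhrf1 had the most negative change, -1.77, followed by Cbx5, Suv39h2, Dnmt1, Dnmt3b, Cbx1 and Trim28. The 3 genes not called were Setdb1, Dnmt3a and Cbx3. By role, 3 of 4 DNA methylation genes, 2 of 3 genes of H3K9 methylation (Suv39h2 and Trim28, not Setdb1) and 2 of 3 HP1 genes fell. Levels are the authors' log2 values, on which a difference of 1 is a doubling, and levels of different genes are not compared, since each probe set binds with its own strength.

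Many genes of S phase and mitosis carry short E2F, CHR or CCAAT letters next to their starts. The sites with E2F letters, those of Uhrf1, Dnmt1 and Cbx3, are therefore shown. The whole 250 bases before the start are printed for Uhrf1 and Dnmt1, which fell, and only the site for Cbx3, which was not called. RefSeq windows (GRCm38.p6) of 250 bases before and 50 after each annotated start were found for 10 of 10 genes, 17 windows in all. The E2F spellings searched were TTTCCCGC, TTTCGCGC, TTTGCCGC and TTTGGCGC, on both strands. They occurred in 3 of the 17 windows, of Uhrf1, Dnmt1 and Cbx3, and in 2.26% of 32851 windows of all genes. The CHR letters TTTGAA occurred in 3 of 17 windows, of Dnmt1, Dnmt3b and Suv39h2, against 17.9% of all windows. CCAAT occurred in 6 of 17 windows, of Dnmt1, Uhrf1, Setdb1 and Cbx5, against 37.4% of all windows. In the sequences below, written 5′ to 3′ along the gene, capitals mark E2F and CCAAT letters on either strand.
Uhrf1 upstream (chr17:56304063-56304312, plus strand): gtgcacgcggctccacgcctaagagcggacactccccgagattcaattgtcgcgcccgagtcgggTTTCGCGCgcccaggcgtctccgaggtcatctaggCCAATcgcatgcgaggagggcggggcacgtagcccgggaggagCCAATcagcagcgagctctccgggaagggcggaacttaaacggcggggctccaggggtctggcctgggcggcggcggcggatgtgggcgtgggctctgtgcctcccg
Dnmt1 upstream (chr9:20952624-20952873, minus strand): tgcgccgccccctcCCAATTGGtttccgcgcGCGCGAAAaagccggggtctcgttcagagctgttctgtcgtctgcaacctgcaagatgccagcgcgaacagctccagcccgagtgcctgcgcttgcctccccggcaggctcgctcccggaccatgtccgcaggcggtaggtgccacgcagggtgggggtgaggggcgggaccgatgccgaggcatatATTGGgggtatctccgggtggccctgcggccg
Dnmt1 site after the start (chr9:20952574-20952603, minus strand): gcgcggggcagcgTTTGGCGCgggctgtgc
Cbx3 site (chr6:51470437-51470466, plus strand): tggagccccgcTTTGGCGCgctccgagacg
The Uhrf1 window held TTTCGCGC with its first base 185 bases before the start and CCAAT at 150 and 107 bases before it. The Dnmt1 window held TTTCGCGC on the opposite strand, 219 bases before the start, and TTTGGCGC 34 bases after it. The letters CCAATTGG in the Dnmt1 window hold CCAAT on both strands, overlapping. Cbx3 held TTTGGCGC 168 bases before its start, and Cbx5 held none of the E2F spellings in its 2 windows. A match describes the letters only.

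Cell cycle and cell type markers moved with the treatment and stand beside every value that follows. The proliferation list (20 genes) fell in 20 of 20, with a median log2 change of -2.09. Mki67, a marker of cycling cells, averaged 8.42 ± 0.83 with ADR and 10.77 ± 0.40 untreated (SD, n = 12 each), an adjusted limma p of 2.22e-05. Cdkn1a, the cell cycle inhibitor p21, was higher with ADR by 1.14 (limma adjusted p = 0.00192). Once the mean of the fibroblast markers entered the fit, Cdkn1a was at 1.01 (limma adjusted p = 0.203) and Mki67 at -2.43 (0.0089). With the macrophage mean added, 0 of all genes were called, with Cdkn1a at 0.14 (limma adjusted p = 0.951) and Mki67 at -2.68 (0.149). Within the 5 lymphomas whose treated files are named sen, Cdkn1a was at 1.63 (limma adjusted p = 0.0529) and Mki67 at -2.14 (0.00915). Of 28 fibroblast markers measured, 23 rose and 0 fell, and their mean per array was 5.53 to 9.48 with ADR and 5.16 to 6.02 untreated. The change of that mean was 0.01 in lymphoma 1467 and 3.96 in lymphoma 403. Of 24 macrophage markers, 17 rose, 0 fell and 7 were not called, namely Cd163, Siglec1, Mrc1, Mertk, C1qa, C1qb and C1qc. The mean of the 24 per array was 6.14 to 9.04 with ADR and 5.13 to 8.18 untreated. Untreated, several fibroblast markers averaged at or below the array medians of 4.38 to 4.47, among them Col3a1 at 3.40 and Pdgfra at 3.45. Others averaged above those medians untreated, among them Vim at 11.87, Fn1 at 6.73, Bgn at 6.09 and Col1a2 at 5.37. Of the B-cell markers, Cd79a averaged 9.84 with ADR and 10.63 untreated, Cd79b 10.78 with ADR and 11.05 untreated, and Blnk 11.51 with ADR and 11.54 untreated. Of 11 B-cell markers measured, 4 fell and 0 rose. The most negative were Fcrla at -1.47 and Cd22 at -1.33, and the most positive was Cd72 at 0.30, not called. The change of the B-cell marker mean was -1.28 to 0.68, lower in 8 lymphomas and higher in 4. Of 10 T and NK markers 1 fell. In bulk RNA, fewer cells of a type and less RNA per cell cannot be told apart. The part of feeder cells, macrophages and fewer cycling cells in the results was not tested beyond the values given with them.

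**Figure D1:**
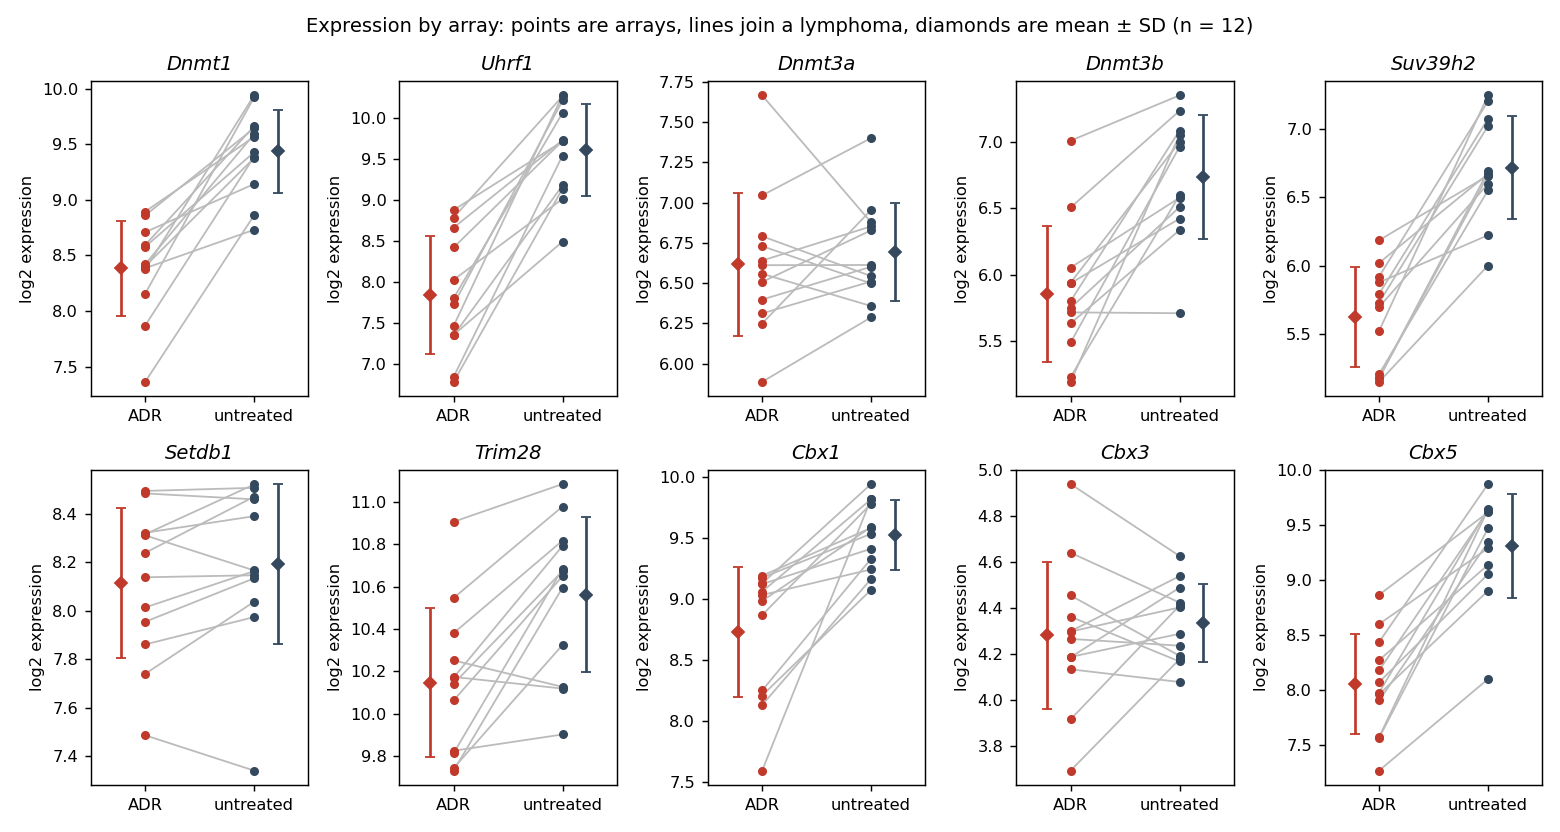
Log2 level of each of the 10 genes in every array, with ADR at the left and untreated at the right of each panel; lines join the arrays of a lymphoma, and diamonds with bars are the mean ± SD of 12. In the panels of Dnmt1, Uhrf1, Suv39h2, Cbx1 and Cbx5 every line is lower at ADR, while those of Dnmt3a, Setdb1 and Cbx3 run both ways.

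Among the DNA methylation genes, the maintenance pair fell in every lymphoma. Uhrf1, which reads hemimethylated DNA, had a lowest, median and highest level of 6.78, 7.76 and 8.88 with ADR, against 8.49, 9.72 and 10.28 untreated. Of the 12 ADR arrays, 9 lay below the lowest untreated array, and the groups overlapped in the other 3. The log2 change was -1.77 (SE 0.19, limma adjusted p = 3.24e-05), a 3.41-fold lower level, lower in 12 of 12 lymphomas. Its second probe set changed by -1.95 (limma adjusted p = 2.04e-05). Among all 18193 genes the change of Uhrf1 ranked 68 from the most negative.

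Dnmt1, the maintenance methyltransferase, had levels of 7.36, 8.41 and 8.89 (lowest, median, highest) with ADR and 8.73, 9.50 and 9.94 untreated. All but 2 ADR arrays lay below the lowest untreated one. Its change was -1.05 (SE 0.12, limma adjusted p = 5.81e-05), a 2.07-fold lower level in ADR lymphomas, and it was lower in 12 of 12. The 3 probe sets of Dnmt1 changed by -1.05, -1.12 and -1.04, and all were called.

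The de novo enzymes differed from each other. Dnmt3b had levels of 5.19, 5.78 and 7.01 (lowest, median, highest) with ADR, against 5.71, 6.78 and 7.35 untreated. Only 4 ADR arrays lay below the lowest untreated one, so the groups overlapped more than for Dnmt1. The change was -0.88 (SE 0.14, limma adjusted p = 0.000545), 1.84-fold lower, in 11 of 12 lymphomas, with lymphoma 2949 at 0.01. Both probe sets of Dnmt3b were called lower. With the mean of the fibroblast markers as a covariate the change was -0.36 (limma adjusted p = 0.413).

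Dnmt3a had levels of 5.89, 6.58 and 7.67 with ADR and 6.29, 6.61 and 7.40 untreated. The medians were close and the ADR range enclosed the untreated one. The change was -0.08 (95% interval -0.31 to 0.16, limma adjusted p = 0.672), below 0 in 8 of 12 lymphomas and 0.79 in lymphoma 1570. Of its 5 probe sets 1 was called lower, with a change of -0.32 (limma adjusted p = 0.0428), and the other 4 changed by -0.08 to -0.29. The change of Dnmt3b was lower than that of Dnmt3a in 12 of 12 lymphomas, by -0.80 (adjusted p = 0.00129 over 45 pairs of genes, two-sided exact permutation of signs).

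Among the genes of H3K9 methylation, Suv39h2, the testis-enriched relative of Suv39h1, had levels of 5.15, 5.71 and 6.19 (lowest, median, highest) with ADR and 6.002, 6.67 and 7.24 untreated. Of the ADR arrays, 10 lay below the lowest untreated one. The change was -1.09 (SE 0.12, limma adjusted p = 3.54e-05), 2.13-fold lower, in 12 of 12 lymphomas. All 3 probe sets were called lower. A second one averaged 4.13 with ADR and 5.69 untreated, a change of -1.55 (limma adjusted p = 9.80e-06), with the ADR mean below the highest array median, so no fold is given.

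Setdb1, the methyltransferase that Trim28 recruits, had levels of 7.49, 8.19 and 8.49 with ADR and 7.34, 8.17 and 8.52 untreated. No ADR array lay below the lowest untreated one. The change was -0.08 (95% interval -0.19 to 0.03, limma adjusted p = 0.303), and 9 of 12 lymphomas were below 0. A second Setdb1 probe set disagreed with the first: it averaged 5.90 ± 0.86 with ADR and 6.66 ± 0.34 untreated, a change of -0.76 (SE 0.24, limma adjusted p = 0.0352). That change was uneven, at -2.52 in lymphoma 1570, -2.39 in 6054 and -1.64 in 403, and between -0.75 and 0.28 in the rest. The third Setdb1 probe set lay near the floor and was not called.

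Trim28, the corepressor that carries Setdb1 and HP1 to DNA, had levels of 9.73, 10.16 and 10.91 with ADR and 9.90, 10.66 and 11.08 untreated. The groups overlapped over most of their range, with 4 ADR arrays below the lowest untreated one. The change was -0.42 (SE 0.09, limma adjusted p = 0.00465), 1.34-fold lower, in 10 of 12 lymphomas, and both probe sets were called lower with a change of -0.42. With the mean of the fibroblast markers as a covariate the change was -0.03 (limma adjusted p = 0.938), against the 3.24% of all genes called lower in that fit.

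Of the HP1 genes, Cbx5 (HP1α) had levels of 7.27, 8.02 and 8.86 (lowest, median, highest) with ADR and 8.10, 9.41 and 9.87 untreated. The lowest untreated array lay inside the ADR range, and 7 ADR arrays were below it. The change was -1.25 (SE 0.13, limma adjusted p = 2.52e-05), 2.38-fold lower, in 12 of 12 lymphomas. Of 5 Cbx5 probe sets 4 were called lower, by -0.51 to -1.25, and the fifth lay near the floor.

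Cbx1 (HP1β) had levels of 7.59, 9.01 and 9.19 with ADR and 9.08, 9.56 and 9.94 untreated. The highest ADR arrays reached just into the untreated range, and 8 ADR arrays lay below it. The change was -0.80 (SE 0.14, limma adjusted p = 0.00116), 1.74-fold lower, in 12 of 12 lymphomas, and the most negative was lymphoma 2581 at -2.23. Of 5 Cbx1 probe sets 3 were called lower. With the fibroblast covariate the change was -0.44 (limma adjusted p = 0.376).

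Cbx3 (HP1γ) was measured by a single probe set near the floor, at 3.69, 4.28 and 4.94 with ADR and 4.08, 4.35 and 4.63 untreated. The 2 groups lay over each other. Its change was -0.05 (95% interval -0.23 to 0.12, limma adjusted p = 0.693), with 6 of 12 lymphomas below 0. A further 4 probe sets carry Cbx3 together with another gene symbol and were not used, so the value says little about Cbx3.

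**Figure D2:**
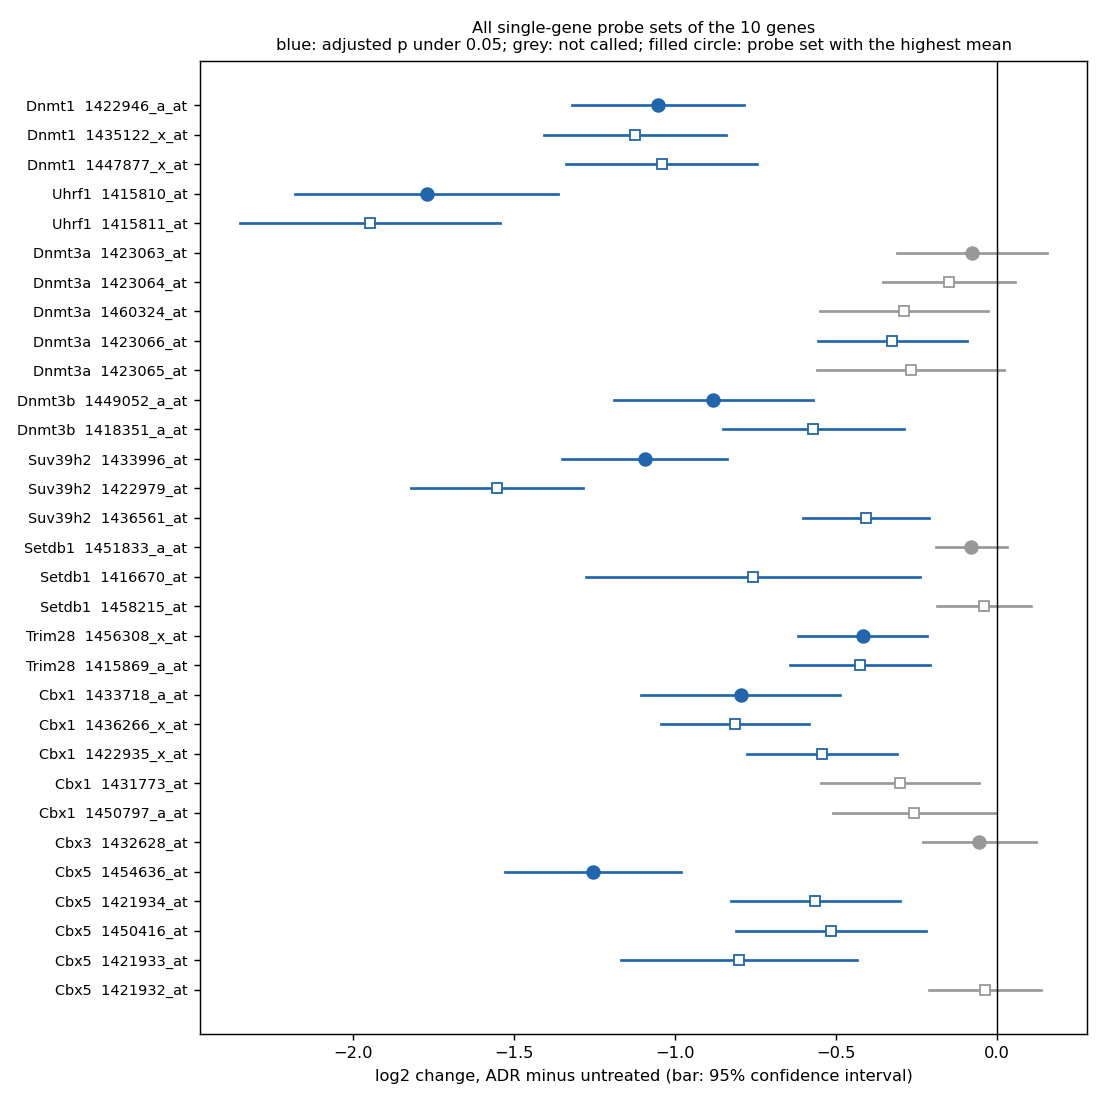
Log2 change, ADR minus untreated, of the 31 probe sets of the 10 genes, with 95% intervals from limma; blue marks probe sets called lower and grey those not called, and filled circles mark the probe set that stood for the gene. All 31 points lie below 0 and 21 are called.

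Over all probe sets, 21 of 31 were called lower and 0 higher, against 12.5% of 34945 probe sets called lower. Of the 10 not called, 4 were probe sets of Dnmt3a, 2 of Setdb1, 2 of Cbx1, 1 of Cbx3 and 1 of Cbx5. All 31 changes were below 0, but in 4 probe sets both groups averaged at or below the highest array median, where these values are compressed. The probe sets of a gene share the RNA of the same arrays and are not separate evidence. Of the 10 genes, 5 were lower in 12 of 12 lymphomas, against 4.17% of all genes, and 0 had every ADR array below every untreated array, against 0.264% of all genes.

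The exact two-sided sign-flip test over the 12 lymphomas gave 0.000488, the smallest p its 4096 sign patterns allow, for Dnmt1, Uhrf1, Suv39h2, Cbx1 and Cbx5. It gave 0.000977 for Dnmt3b, 0.00342 for Trim28, 0.0801 for Setdb1, 0.509 for Dnmt3a and 0.506 for Cbx3. The changes of the genes were then compared within lymphomas over the 45 pairs of genes, of which 33 passed. Uhrf1 changed by more than Cbx5, the next in order, by -0.52, a difference seen in 11 of 12 (adjusted p = 0.00338 by the exact sign-flip permutation test). Cbx5, Suv39h2, Dnmt1, Dnmt3b and Cbx1 followed, and no neighbours among them passed (exact adjusted p of 0.326 to 0.808), although Cbx5 against Cbx1 did, at -0.46 (exact adjusted p = 0.0213). Cbx1 lay below Trim28 by -0.38 (exact adjusted p = 0.00824), and Trim28 below Setdb1 by -0.34 (exact adjusted p = 0.00758). Among Setdb1, Dnmt3a and Cbx3 no neighbours passed (exact adjusted p of 0.862 and 0.988). Suv39h2 changed by more than Setdb1, by -1.01 in 12 of 12 lymphomas (exact adjusted p = 0.00129). These are differences between log2 changes of single probe sets, and probe sets of a gene can differ in their change, as those of Setdb1 and Cbx5 did. The place of Cbx5 in the order rests on its probe set at -1.25, while its other called probe sets changed by -0.51, -0.56 and -0.80.

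The size of the change varied among lymphomas. Of the 10 genes, 10 were below 0 in lymphomas 3594, 3769, 5766 and 7050, and 6 in lymphomas 1467 and 2949. The median over the 10 genes was -1.36 in lymphoma 2581, -1.17 in 3769 and -0.18 in 2949. Lymphoma 2949 had the largest fall in Mki67, -4.28, with Uhrf1 at -2.36 and Dnmt1 at -1.50 but Dnmt3b at 0.01 and Cbx1 at -0.29. Lymphoma 3802 had the smallest fall in the proliferation list, -0.87, with Uhrf1 at -1.06 and Dnmt1 at -0.67. In lymphoma 1467, where the fibroblast marker mean changed by 0.01, Uhrf1 changed by -0.99, Dnmt1 by -0.97 and Cbx5 by -0.87, whereas Trim28 was at 0.12. The macrophage marker mean rose by 1.62 in that lymphoma.

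**Figure D3:**
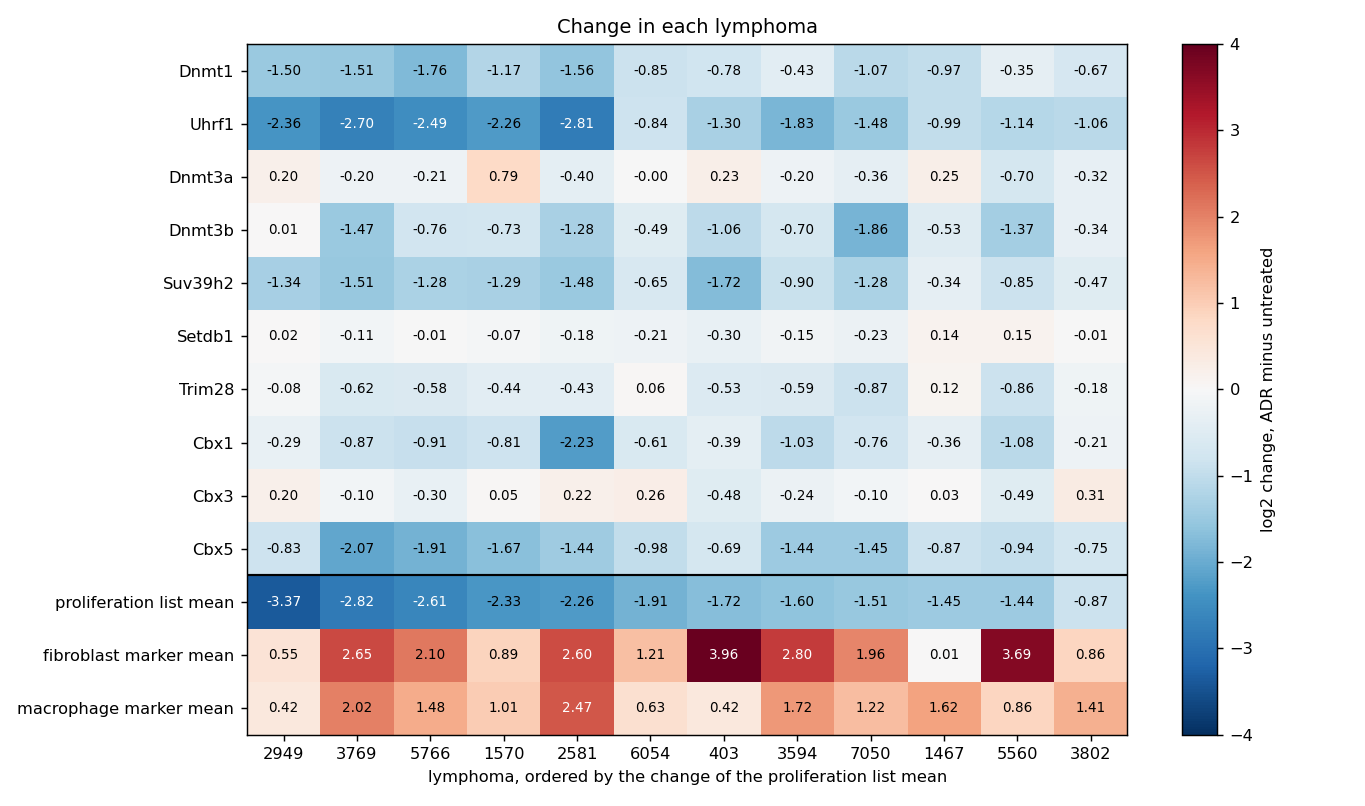
Log2 change, ADR minus untreated, of each gene in each of the 12 lymphomas, with the mean change of the proliferation, fibroblast and macrophage marker lists beside them; lymphomas are ordered by the proliferation change. Uhrf1 is the most negative of the 10 genes in most lymphomas, and Setdb1, Dnmt3a and Cbx3 lie on both sides of 0.

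Over the 12 lymphomas, each gene's change was set against the mean change of the proliferation list and of the fibroblast markers, 20 relations in all, with two-sided permutation p-values of 100000 resamples. Dnmt1 followed the proliferation list (r = 0.782, permutation p = 0.0029, adjusted 0.0265; rho = 0.776, adjusted 0.0751). With lymphomas 2949 and 3769 left out, which lay farthest from the median of the list, r was 0.762. Uhrf1 gave r = 0.778 (permutation p = 0.003, adjusted 0.0265; rho = 0.720, adjusted 0.0751) and 0.762 without the same lymphomas. Both relations passed by Pearson's r and missed the threshold by Spearman's rho. Suv39h2 gave r = 0.604 (permutation p adjusted 0.125) and rho = 0.650 (adjusted 0.0806), and neither passed. Cbx5 gave r = 0.450 (permutation p adjusted 0.313), which was 0.752 without lymphomas 2949 and 3769, so its value rests on which lymphomas are included.

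Trim28 ran against the fibroblast markers (r = -0.755, permutation p = 0.0053, adjusted 0.0265; rho = -0.692, adjusted 0.0751), with r = -0.751 without lymphomas 1467 and 403. Cbx3 gave r = -0.760 (permutation p = 0.00526, adjusted 0.0265; rho = -0.713, adjusted 0.0751), on values near the floor. Dnmt3b gave r = -0.633 (permutation p adjusted 0.116) and did not pass. For Dnmt1 the relation with the fibroblast markers was r = 0.244 and for Uhrf1 -0.108. The treated arrays' labels name 7 of the 12 files DOX and 5 sen, a wording whose meaning the labels do not give. Within the 7 DOX lymphomas, r with the proliferation list was 0.804 for Dnmt1 (exact permutation p = 0.0373, adjusted 0.168) and 0.785 for Uhrf1 (exact p = 0.0448, adjusted 0.168). With the fibroblast markers it was -0.774 for Trim28 (exact p = 0.0587, adjusted 0.168) and -0.857 for Cbx3 (exact p = 0.0286, adjusted 0.168). No relation within the DOX lymphomas passed after adjustment over the 20. Cbx1 came closest, with r = -0.942 against the fibroblast markers (exact p = 0.00298, adjusted 0.0595), where over all 12 lymphomas r was -0.429 (permutation p adjusted 0.326). Cbx5 gave -0.850 in the DOX lymphomas (exact p = 0.0224, adjusted 0.168) and -0.142 over all 12. No correlation was computed within the 5 sen lymphomas.

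**Figure D4:**
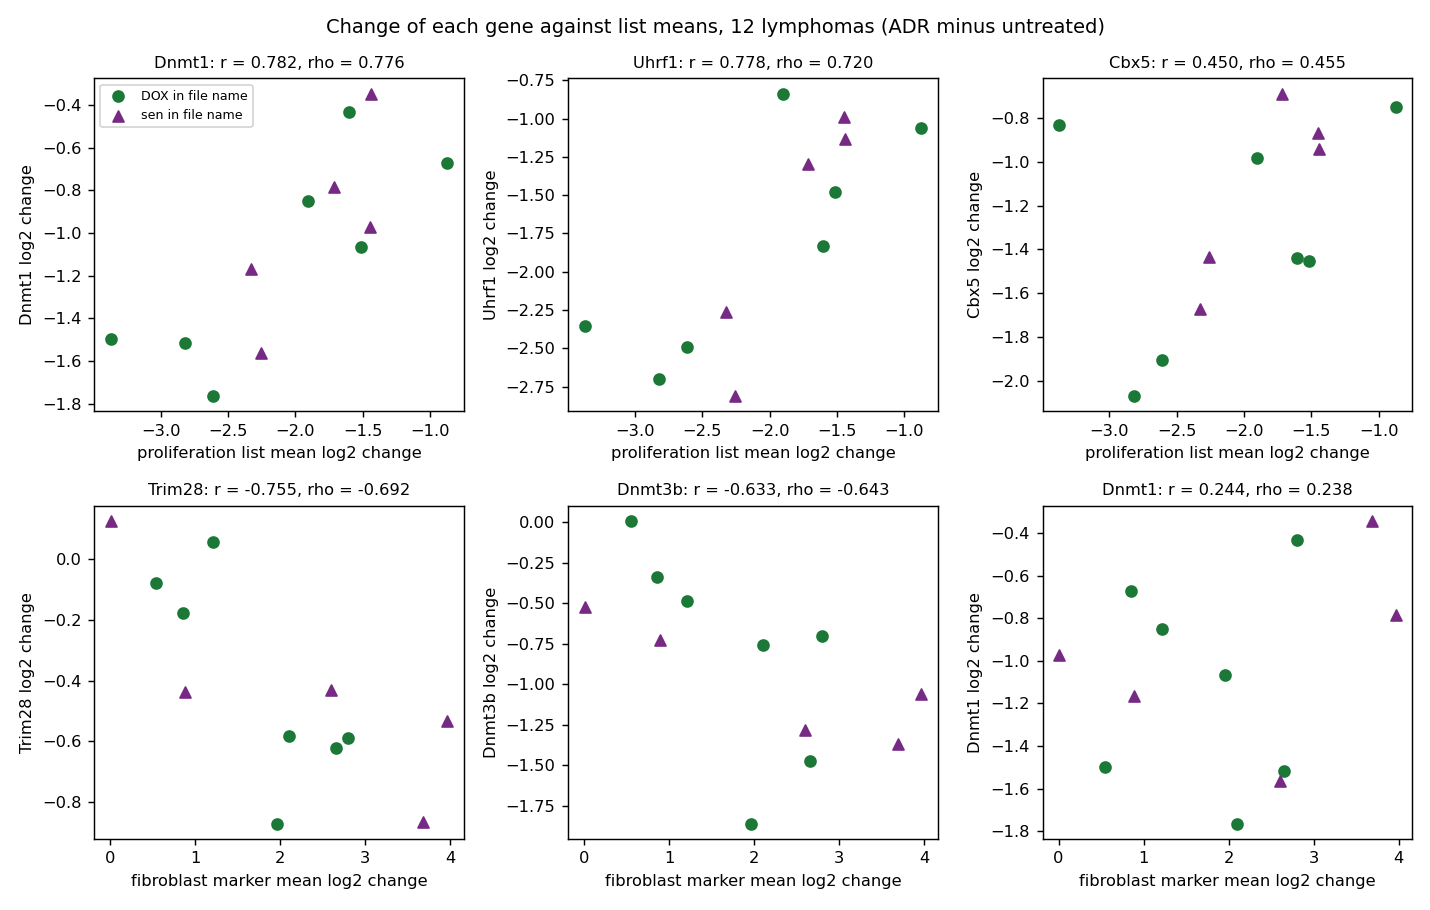
Change of a gene, ADR minus untreated on the log2 scale, against the mean log2 change of the proliferation list (upper panels: Dnmt1, Uhrf1 and Cbx5) or of the fibroblast markers (lower panels: Trim28, Dnmt3b and Dnmt1), 1 point per lymphoma, with marker shapes for the DOX and sen file names. Dnmt1 and Uhrf1 are more negative where the proliferation list fell more (r = 0.782 and 0.778), and Trim28 is more negative where fibroblast markers rose more (r = -0.755).

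With the mean of the fibroblast markers as a covariate in limma, 4 of the 10 genes were still called lower, against 3.24% of all genes. Dnmt1 changed by -1.23 (adjusted limma p = 0.0104), Uhrf1 by -1.65 (0.0205), Cbx5 by -1.15 (0.0171) and Suv39h2 by -0.74 (0.0488). Dnmt3b, Cbx1 and Trim28 were no longer called. With the macrophage mean added as well, limma called 0 of all genes (2204 at an unadjusted p under 0.05), and the adjusted limma p of the 10 members was 0.271 or above. In that fit Uhrf1 was at -1.001, Dnmt1 at -0.94, Suv39h2 at -0.77, Cbx5 at -0.64 and Dnmt3b at -0.04. Trim28 was at 0.04 and Cbx1 at 0.21. Each of the 10 members had a larger SE than without covariates, at 0.34 against 0.12 for Dnmt1 and 0.49 against 0.19 for Uhrf1. Both marker means rose in 12 of 12 lymphomas, so this fit separates them poorly from the treatment. Whether feeder cells or macrophages account for the loss of calls was not tested. Without lymphomas 403 and 5560, in which the fibroblast markers rose most, the same 7 genes were called, against 10.0% of all genes called lower. Within the DOX lymphomas all 7 were called, against 8.80% of all genes, and within the sen lymphomas 5, against 2.60%. Cbx1 (-0.98, SE 0.28, adjusted limma p = 0.115) and Trim28 (-0.43, SE 0.15, 0.165) were not called in the sen lymphomas. In the DOX lymphomas they changed by -0.67 (SE 0.11) and -0.41 (SE 0.12). The difference between the file-name sets was called for 0 genes by limma (1237 at an unadjusted p under 0.05), and the 10 genes had adjusted p-values of 0.869 to 0.987.

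The genes whose 12 changes had the highest Pearson r with those of a member, among 18192 others, are given as a description without a test. They share arrays and the pairing. For Uhrf1 they were Pole, the catalytic subunit of DNA polymerase ε (r = 0.946), Chek1, a checkpoint kinase (0.932), and Ercc6l, a mitotic helicase (0.926). For Dnmt1 they were Brip1, a DNA repair helicase (0.925), Hat1, a histone acetyltransferase (0.896), and Stau2, an RNA-binding protein (0.895). For Suv39h2 they were Frmd5 (0.918), Ankrd26 (0.910) and Mybl2, a cell cycle transcription factor (0.8997), and for Cbx5 Ipo7, a nuclear import receptor (0.885), Oip5, a centromere factor (0.879), and Myg1 (0.877). For Dnmt3b they were Shmt2, a mitochondrial serine enzyme (0.939), Kbtbd8 (0.926) and Zfp566 (0.923), and for Trim28 Ndufaf8 (0.942), Clns1a (0.938) and Chordc1 (0.928). Cbx1 had Ccm2 (0.920), Fubp3 (0.873) and Socs4 (0.868). The genes not called had Chd3 (0.914), Kat6a (0.895) and Rnf44 (0.894) for Dnmt3a, Plxna4 (0.875), 4833417C18Rik (0.862) and Disp2 (0.855) for Setdb1, and Idh3g (0.921), Nt5c3 (0.907) and Adi1 (0.901) for Cbx3. Among the members themselves, Dnmt1 and Uhrf1 had r = 0.776, Uhrf1 and Cbx5 0.722, Dnmt3b and Trim28 0.800, and Dnmt1 and Dnmt3b 0.01.

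Other genes of the same pathways were read from 6 lists, of whose 52 genes 47 were measured. In all, 13 fell, 3 rose and 31 were not called, against 12.8% and 13.7% of all genes, and their median log2 change was -0.11. Calls were most frequent in the list of partners of maintenance methylation, where 5 of 8 fell and 0 rose (median -0.50). That list also held Dnmt3l, a partner of the de novo enzymes, at 0.25 and not called. Cdca7, which with Hells forms a nucleosome remodeller needed for DNA methylation, averaged 7.88 ± 0.83 with ADR and 9.41 ± 0.34 untreated, a change of -1.53 (limma adjusted p = 0.000282). Lig1, the ligase that joins replicated DNA and is bound by Uhrf1, averaged 7.95 ± 0.59 with ADR and 9.40 ± 0.39 untreated, a change of -1.45 (limma adjusted p = 5.44e-05). Hells was lower by a change of -1.35, Pcna, the replication clamp, by -0.74 and Usp7, a deubiquitinase of Uhrf1 and Dnmt1, by -0.25. Uhrf2, the relative of Uhrf1, was at 0.10 (limma adjusted p = 0.393) and was not called. Several of these genes also belong to DNA replication, and the proliferation list fell in every lymphoma. Whether fewer cycling cells account for the changes of these partners was not tested.

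Of the 5 demethylation genes measured, 1 fell. Mbd4, a glycosylase that removes deaminated methylcytosine, averaged 6.08 ± 0.55 with ADR and 7.33 ± 0.55 untreated (change -1.25, limma adjusted p = 0.000754), lower in 12 of 12 lymphomas and on 3 of 3 probe sets. The Tet oxidases were not called, with Tet2 at -0.38 (limma adjusted p = 0.0699) and Tet1 and Tet3 near the floor. In the list of readers of methylated DNA, which also held their relative Mbd3, 2 of 6 genes measured rose and 1, Mbd3, fell. Zbtb4, a zinc-finger repressor, averaged 7.27 ± 0.51 with ADR and 6.23 ± 0.73 untreated, a change of 1.04 (limma adjusted p = 8.73e-05), higher in 12 of 12 lymphomas and on 3 of 4 probe sets. Mbd1 was higher by 0.35 (limma adjusted p = 0.0213), on 1 of 5 probe sets. Mbd3, of the NuRD complex, changed by -0.43 (limma adjusted p = 0.0483), and its single probe set was not called when all probe sets were tested.

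In the list of other H3K9 methyltransferases, which also held their partner Wiz, 2 of 5 genes measured fell and 0 rose. Setdb2 changed by -0.39 (limma adjusted p = 0.0144) and Ehmt1 (GLP) by -0.26 (limma adjusted p = 0.0165), and its partner Ehmt2 (G9a), at -0.11 (limma adjusted p = 0.143), was not called. Of 11 H3K9 demethylases, 9 were not called. Kdm1a (LSD1) was lower by a change of -0.31 (limma adjusted p = 0.012), and Jmjd1c was higher by 0.30 (limma adjusted p = 0.0318), on 1 of 3 probe sets. Of 12 heterochromatin partners measured, 3 fell. Chaf1b, a subunit of the chromatin assembly factor of replication, changed by -0.79 (limma adjusted p = 5.00e-05) and Smchd1, which acts on the inactive X chromosome, by -0.63 (limma adjusted p = 7.53e-05), each on 1 of 2 probe sets. Daxx, a histone H3.3 chaperone, changed by -0.20 (limma adjusted p = 0.0274), and its partner Atrx was at 0.02 and not called, although 3 of its 7 probe sets were called lower.

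**Figure D5:**
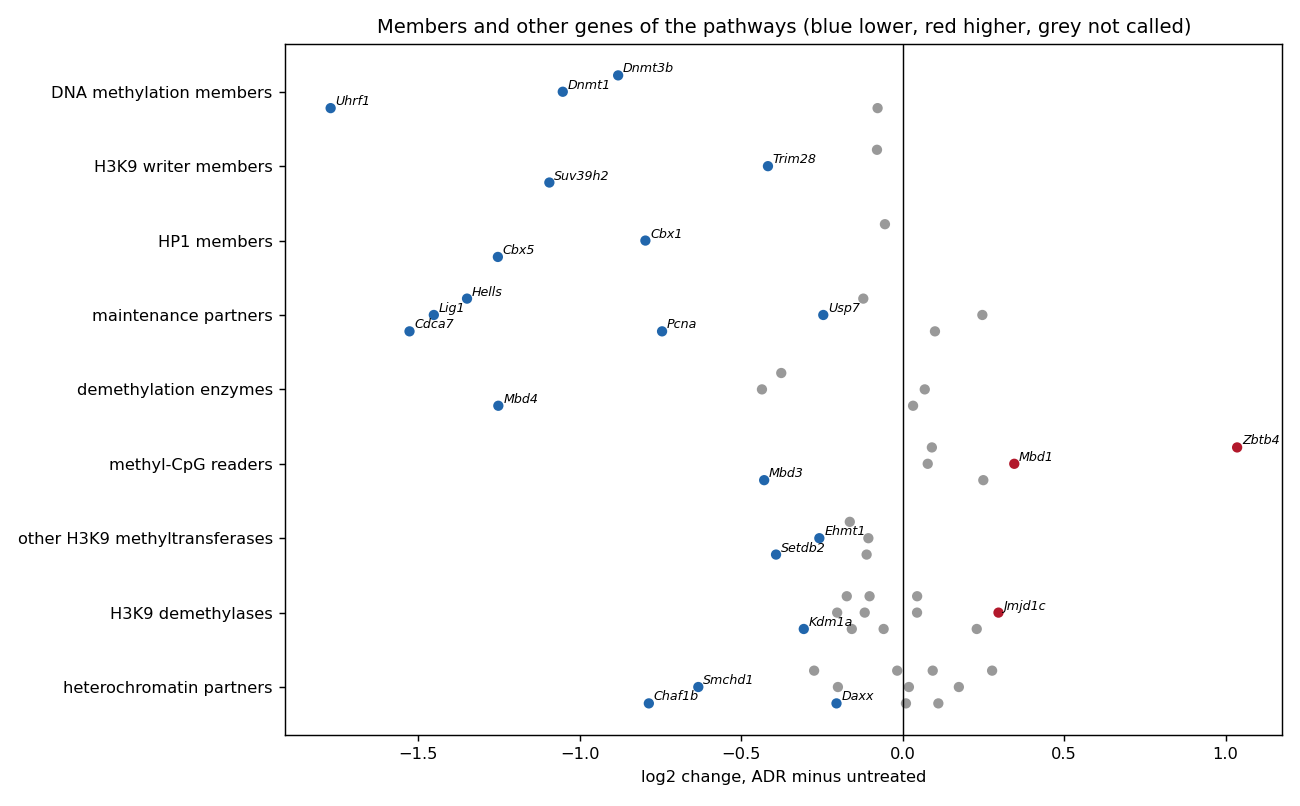
Log2 change, ADR minus untreated, of the genes of the 6 pathway lists and of the 10 members, 1 dot per gene, with called and not called genes marked. The maintenance partners reach -1.53 (Cdca7), the lowest of the 6 pathway lists, and Zbtb4, at 1.04, is the highest.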

How the data were processed

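RNA of 12 lymphomas, each with ADR and untreated, was measured on 24 Affymetrix arrays. The deposited table holds the authors' log2 values, 1 per probe set and array. RMA and Partek made them, per the submitters' processing notes, and their versions are not given in the sources used here. Lowest values were 1.97 to 2.14 and highest 14.06 to 14.36 per array, so values of weakly expressed genes are compressed near the lower end and their changes can look smaller. Precision is limited by the number of lymphomas.

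Of 45101 probe sets, 34945 had 1 gene symbol, 932 several, 9160 none and 64 were controls, and 34741 matched RefSeq. The probe set with the highest mean stood for each of 18193 genes, 9010 of which had several. ADR was compared with untreated by limma 3.58.1 under R 4.3.3, blocking on lymphoma, with Benjamini-Hochberg adjustment over all genes, or over all single-gene probe sets. P-values measure the spread between lymphomas. The design text states matched pairs and the titles number them. Paired arrays deviated together from the group means (r 0.257 to 0.589, above 0.1 in 12 of 12 and highest with the own pair in 10). Arrays correlated at 0.908 to 0.992, and 0 were identical.

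In simulated data with 18193 genes, 80 genes had a log2 change of 0.5, 80 of 1 and 40 of 2. Limma recovered 75%, 90% and 100% of them, and 7.03% of its calls were false. In the measured data 4829 genes were called, so these rates need not hold there. Promoter and correlation steps used Python 3.11.15, numpy 2.4.6, scipy 1.17.1 and pandas 2.3.3, and figures matplotlib 3.10.9. No protein sequences were used.

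Members and lists were chosen with earlier results of these data known. Named were all 10 members, the 2 called genes of each pathway list with the most negative and the 2 with the most positive change, Mki67 and Cdkn1a, and the 3 genes most like each member. Other named genes (such as Hells, Pcna, Usp7, Daxx, Uhrf2 and the Tet genes), and the comparisons of members with each other, were chosen after values were seen. Alternatives were the block, scaling, filter, choice of probe set, variance model, marker covariates, file-name sets and leaving out lymphomas.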

Additional observations from a re-analysis of the deposited data

How the results depend on the processing

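Leaving out each lymphoma in turn kept the direction and the side of the threshold of all 10 members in the 12 fits, with Uhrf1 at -1.86 to -1.68, Dnmt1 at -1.12 to -0.99 and Trim28 at -0.47 to -0.38; genes called ranged over 3966 to 5165. The same 7 members were called lower under each of 13 other settings, apart from the exceptions given below. With no replicate block 3210 genes were called (1630 higher), and of the pathway genes 8 lower and 1 higher. Centring arrays on their medians, which were 5.52 with ADR and 5.41 untreated over the genes, shifts every change by -0.11, called 4283 genes lower, 21 pathway genes lower and 1 higher, and made 70.4% of calls lower, against 48.2% as reported and 54.8% after quantile normalization. Setdb1 then passed at -0.19. The probe set with the largest variance (Dnmt3a -0.32, Setdb1 -0.76) and the mean of probe sets (Dnmt3a -0.22, Setdb1 -0.29) made both pass and left 1 pathway gene higher each. Cbx5 stayed called but was at -0.51 and -0.63 in these fits, against -1.25 in the main fit. The fibroblast covariate left 1003 genes (590 lower, 413 higher), 4 members (Dnmt1, Uhrf1, Suv39h2 and Cbx5), 8 member probe sets and 3 pathway genes lower and 1 higher, and turned Dnmt3a to 0.22, Setdb1 to 0.0063 and Cbx3 to 0.28. Both covariates left 0 genes, lower or higher, 0 members and 0 pathway genes in either direction, and turned Dnmt3a to 0.47, Cbx1 to 0.21, Cbx3 to 0.16 and Trim28 to 0.041. The cause was not tested. The sen lymphomas alone gave 811 genes (473 lower, 338 higher), 5 members (not Cbx1 and Trim28), 4 pathway genes lower and 1 higher, and Dnmt3a at 0.032. The DOX lymphomas gave 1649 genes higher, 8 pathway genes lower and Cbx3 at 0.0033. Without lymphomas 403 and 5560 Cbx3 was at 0.032.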
